A study of Mus musculus with 18 samples.

Results

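A set of 10 genes of NF-kB signalling and of leukocyte recruitment to vessel walls was followed in the retinas of normoglycemic and diabetic mice: Rela, Relb, Nfkb1 and Nfkb2, which encode NF-kB subunits, Nfkbia, which encodes the inhibitor IkB alpha, the cytokine gene Tnf, the chemokine genes Ccl2 and Cxcl10, and Icam1 and Vcam1, which encode adhesion molecules of the endothelium. They were taken by symbol, and all 10 were present among the 35006 gene names of the count data. The retinal poly(A) RNA of male mice had been sequenced in 18 libraries. WT (n = 3) was C57BL/6J on plain drinking water. WT + NACET (n = 6) was the same strain given N-acetyl-L-cysteine ethyl ester, a cell-permeable ester of the antioxidant N-acetylcysteine, in its water. Akita (n = 4) was C57BL/6-Ins2Akita/J, heterozygous for a mutation of an insulin gene that causes diabetes early in life, on plain water, and Akita + NACET (n = 5) was that strain with NACET. The water held 0.33 mg/mL NACET, meant to give 50 mg/kg each day, and both water and NACET were given from 4 to 24 weeks of age. The labels do not say whether libraries of a group came from separate mice or from pools, so the p-values measure the spread between libraries. The questions were whether these genes differ with diabetes (Akita vs WT), with NACET in either genotype, between the genotypes under NACET, and whether the NACET effect depends on genotype.

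NF-kB proteins are dimeric transcription factors that IkB proteins hold in the cytoplasm. Signals from receptors of TNF, interleukin-1 and microbial products activate IkB kinases, the inhibitor is degraded, and the freed dimers induce chemokines, adhesion molecules and Nfkbia itself, which closes a negative feedback loop. In the diabetic retina, ICAM-1 and VCAM-1 are known as the endothelial ligands to which leukocytes attach in leukostasis, and CCL2 as an attractant of monocytes.

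The windows of the promoters are shown because some of these genes, such as Nfkbia, are textbook targets of NF-kB. The 4 printed windows also differ in how many NF-kB sites they hold. RefSeq windows from 250 bases before to 50 bases after a start site (GRCm38.p6) were available here for 6 of the 10 members, as 8 windows: Icam1, Cxcl10, Tnf, Rela and Nfkbia with 1 each and Nfkb2 with 3. Windows for Vcam1, Ccl2, Nfkb1 and Relb were not analysed here. The 250 bases before the start site read 5′ to 3′ on the gene's strand, with capitals for matches of the NF-kB consensus on either strand and, in Icam1, for the 9 letters GGAAATTCC.
Icam1, chr9:21015690-21015939, plus strand: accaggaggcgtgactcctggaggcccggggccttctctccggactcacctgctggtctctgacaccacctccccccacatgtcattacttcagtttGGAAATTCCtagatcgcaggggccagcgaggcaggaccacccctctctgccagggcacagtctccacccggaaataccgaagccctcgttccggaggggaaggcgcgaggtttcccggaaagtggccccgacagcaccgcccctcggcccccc
Cxcl10, chr5:92348890-92349139, minus strand: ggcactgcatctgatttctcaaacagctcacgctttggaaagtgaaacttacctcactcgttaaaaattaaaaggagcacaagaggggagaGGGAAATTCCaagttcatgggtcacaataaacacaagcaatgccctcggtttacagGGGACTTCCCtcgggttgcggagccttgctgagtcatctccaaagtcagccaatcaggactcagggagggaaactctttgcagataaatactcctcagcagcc
Nfkb2, first start site, chr19:46304487-46304736, plus strand: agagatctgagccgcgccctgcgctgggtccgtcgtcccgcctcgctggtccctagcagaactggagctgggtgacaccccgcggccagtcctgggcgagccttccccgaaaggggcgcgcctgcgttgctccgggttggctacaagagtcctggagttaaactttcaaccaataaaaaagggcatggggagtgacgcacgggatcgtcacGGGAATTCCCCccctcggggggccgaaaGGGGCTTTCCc
Nfkbia, chr12:55492648-55492897, minus strand: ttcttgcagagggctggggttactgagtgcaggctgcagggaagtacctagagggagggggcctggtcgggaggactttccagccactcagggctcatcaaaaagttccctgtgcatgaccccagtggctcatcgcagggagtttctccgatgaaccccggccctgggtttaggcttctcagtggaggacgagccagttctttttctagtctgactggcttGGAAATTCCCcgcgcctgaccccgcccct

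The 10-letter NF-kB consensus, searched on both strands, was found in 3 members: Cxcl10 with 2 matches (starting 159 and 103 bases before the start site), Nfkbia with 1 (29 bases before it) and Nfkb2 with 3 in the window of its first start site, of which 2 overlap. The windows of the other Nfkb2 start sites held 2 and 1, and share a match. Among all 32851 promoter windows of this length, 4.51% held the consensus. Counted by gene, 5.14% of 27025 genes held it in at least 1 window. Icam1, Tnf and Rela had none in their windows. The Icam1 window held GGAAATTCC, 153 bases before the start site, which also lies inside a consensus match in Cxcl10 and in Nfkbia, and these letters were in 0.317% of all windows. GGAAATTCC was chosen after the windows were seen, so its share is a description, and a match is not evidence of binding.

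**Figure D1:**
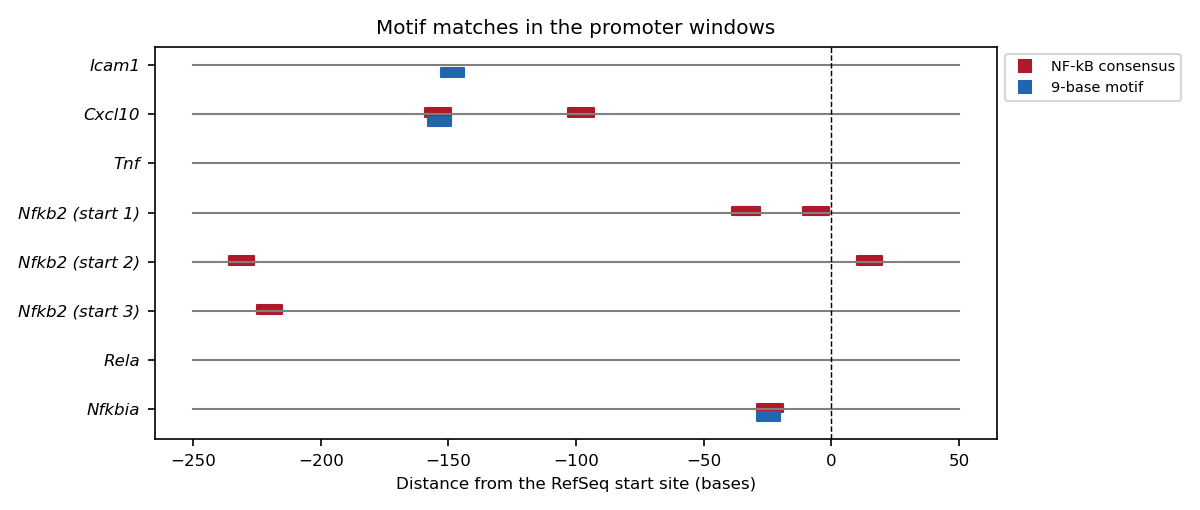
Position of sequence matches in the 8 promoter windows, as the distance in bases from the RefSeq start site (dashed line at 0). Red boxes are matches of the NF-kB consensus and blue boxes matches of the 9-letter motif; Cxcl10, the 3 Nfkb2 windows and Nfkbia hold the consensus, while Icam1 holds only the 9-letter motif.

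The libraries held between 11590384 and 18073791 counts in genes. The rod photoreceptor markers summed to between 87471 and 208663 CPM (counts scaled to library size with TMM factors), which places them among the most abundant RNAs, and of 14 markers of circulating leukocytes only 2 were high enough to test, with Cd3e and Ms4a1 at 0 counts in all 18 libraries. Lens genes summed to 19962 CPM in WT + NACET replicate 5, 2487 in Akita replicate 2 and 1094 in Akita + NACET replicate 3. The share of uniquely aligned reads outside annotated exons was 9.67% to 13.3% in Akita, which did not overlap WT (14.9% to 17.1%) or Akita + NACET (14.3% to 19.8%), and 9.55% to 16.5% in WT + NACET. The WT + NACET libraries stood apart from all other groups: Acp1 was at 2.05 to 3.14 CPM in them and between 26.7 and 40.1 in the other 3 groups, and Wdfy1 was at 89.0 to 103 CPM in them with group means of 14.2 to 16.0 elsewhere. Neither gene was called in Akita + NACET vs Akita (edgeR adjusted p = 0.348 and 0.186). For every value that rests on WT + NACET, the interaction included, NACET and whatever else sets these libraries apart cannot be told apart.

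The levels of the 10 members spanned a wide range. Per kilobase of merged exon, Nfkbia was the highest over all 18 libraries (32.1 CPM per kb), followed by Rela (6.98) and Vcam1 (2.48). Nfkb1 (0.694), Nfkb2 (0.609), Relb (0.552) and Icam1 (0.324) lay close together, and Ccl2 (0.157), Cxcl10 (0.0942) and Tnf (0.0186) were lowest. The spread within groups, as a coefficient of variation, was 13.2% for Rela, 18.7% for Nfkbia and 20.7% for Vcam1, and 29.3% to 33.2% for Nfkb1, Relb and Nfkb2. The spread of Icam1 was 65.6%. From Nfkb1 down to Icam1, and among the 3 lowest genes, neighbours in this order did not differ beyond their spread. Counting error alone gives 28.0% for Icam1 and 3.60% for Nfkbia. The default expression filter asked for about 0.657 CPM in at least 3 libraries. The inhibitor, the 4 subunits and Vcam1 passed it in all 18 libraries. Icam1 passed through 9 libraries, of which 5 were WT + NACET, 2 WT, 1 Akita and 1 Akita + NACET. Tnf, Ccl2 and Cxcl10 were too low to test. Icam1 passed in more libraries of WT + NACET, its highest group, than of any other, though the libraries outside that group were enough for the filter. As 3 members were too low to test, the number of tested members called is not evidence about the whole set.

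**Figure D2:**
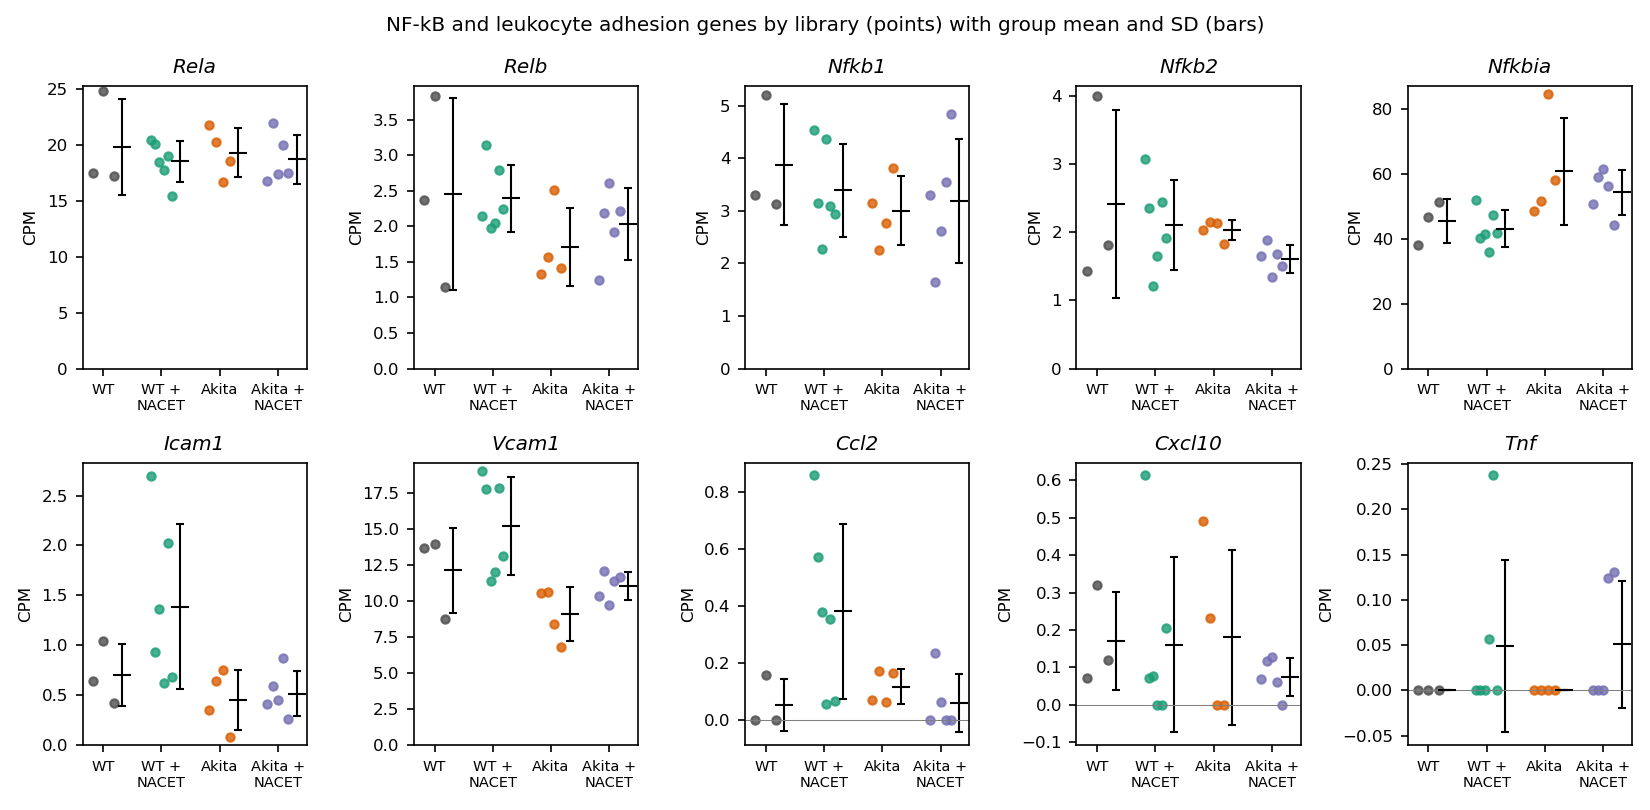
Level of each member in CPM (y axis, starting at 0 or below) in each of the 18 libraries (points) of the 4 groups, with the group mean and SD (bars). Rela lies between 15.4 and 24.8 CPM in every group, whereas the highest Icam1 (2.70 CPM) and Ccl2 values are those of WT + NACET libraries.

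Icam1 (chromosome 9, 20820404 to 20833241, mm9) encodes the ligand of the leukocyte integrins LFA-1 and Mac-1. Its level was 0.646, 1.04 and 0.422 CPM in the 3 WT libraries. In WT + NACET it ranged from 0.624 to 2.70 with a median of 1.15. The 4 Akita libraries had 0.351, 0.637, 0.753 and 0.0829 CPM, and the 5 Akita + NACET libraries 0.413, 0.589, 0.447, 0.870 and 0.261. Within WT + NACET, replicates 1 and 5 were highest, at 2.70 and 2.02 CPM, and 4 of the 6 libraries lay above every Akita + NACET library, while the other 2 lay within the Akita + NACET range. These levels rest on 1 to 44 counts per library and 229 in all. Icam1 was the only member called: it was lower in Akita + NACET than in WT + NACET (log2 fold change −1.41 ± 0.44, SE; edgeR quasi-likelihood test, adjusted p = 0.0404), a 2.66-fold difference. In WT + NACET vs WT the value was 1.01 ± 0.52 (SE, adjusted p = 0.285), and the interaction of genotype with NACET was −0.88 ± 0.76 (SE, adjusted p = 0.420), so that an effect of NACET on Icam1 was not shown to differ between genotypes. The call depended on several libraries: the adjusted p was 0.0896, 0.0692 and 0.0883 without WT + NACET replicate 1, 3 or 5, and for Akita + NACET it was 0.0741 without replicate 1, 0.0675 without 2, 0.0640 without 3 and 0.118 without 5. With a covariate for reads outside exons the log2 fold change was −1.45 (adjusted p = 0.210) and with the replicate number as a block −1.46 (adjusted p = 0.0707), so the fold was as large without the call, and the direction was the same in all 24 alternatives in which Icam1 could be tested.

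Icam1 shares 491 of its 2540 exonic bases (19.3%) with Mir1900 on the opposite strand, which had at most 8 counts, and reads there could not be assigned since counting ignored strand. Marker lists of other cells were summed in the same comparison, Akita + NACET vs WT + NACET. There edgeR called 13.3% of all genes, and 31.1% had an unadjusted p under 0.05. With such shares, 0 called in a short list does not show a lack of change. Microglial markers (14 genes) summed to 137 to 194 CPM in WT + NACET and 81.4 to 126 in Akita + NACET, and 10 of the 14 were called lower in Akita + NACET. Endothelial markers (15 genes) summed to 148 to 212 and 163 to 196, and 0 of 15 were called by edgeR (2 had an unadjusted p under 0.05). Pigment epithelium markers (8 genes) were at 486 to 1421 and 94.4 to 683, with 0 of 8 called (1 with an unadjusted p under 0.05). Of the red cell markers, 3 of 5 tested were called higher in Akita + NACET (median sums of 29.1 CPM in WT + NACET and 41.4 in Akita + NACET), and of the rod markers 4 of 10 were called lower (118806 to 158505 and 87471 to 119366). Mueller glia markers (10 genes) summed to 3330 to 4755 CPM in WT + NACET and 2789 to 3168 in Akita + NACET. Of these 10 genes, 1 was called lower and 2 had an unadjusted p under 0.05. The part of all these markers in the Icam1 difference was not tested. In whole retina, fewer cells of a type and less RNA per cell cannot be told apart.

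**Figure D3:**
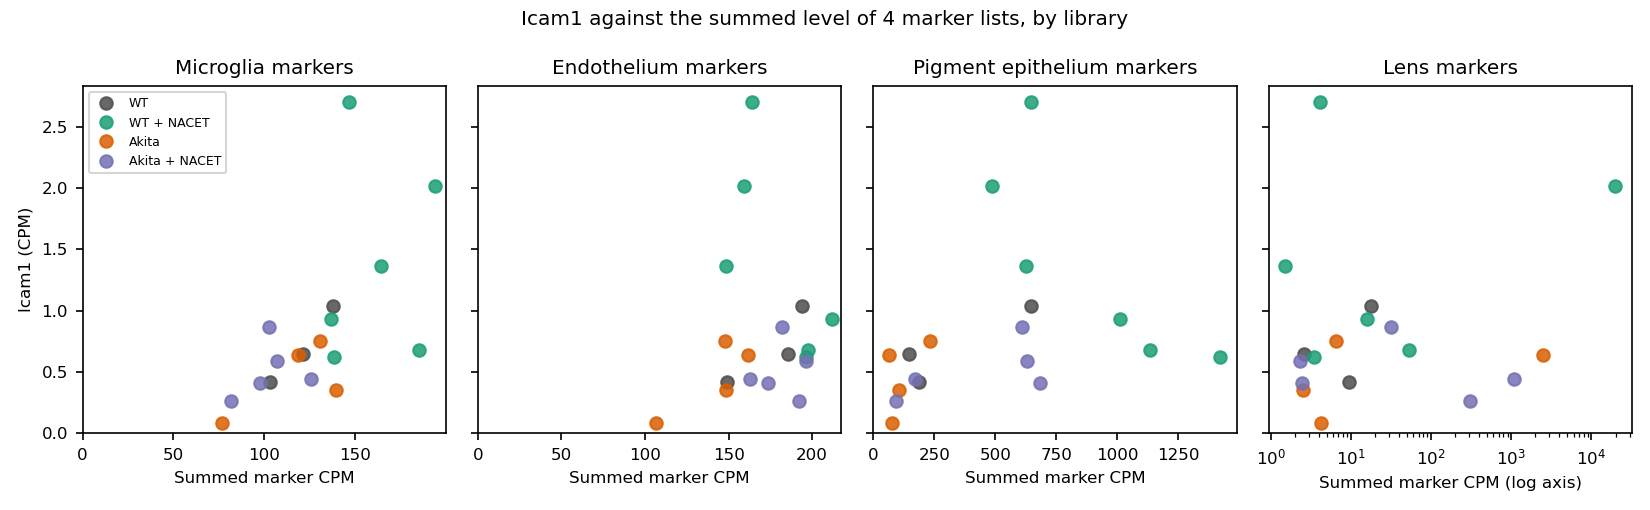
Icam1 level (CPM, y axis) against the summed CPM of markers of microglia, endothelium, pigment epithelium and lens (x axes; log axis for lens) in the 18 libraries, coloured by group. The WT + NACET library with the highest Icam1 (2.70 CPM) had little lens signal (4.17 CPM), and the next (2.02 CPM) had the highest lens (19962) and microglial (194) sums.

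Vcam1 (chromosome 3, 115812938 to 115832606), the endothelial ligand of the integrin that Itga4 forms with its beta chain, was at 13.7, 14.0 and 8.73 CPM in WT and at 11.4 to 19.0 (median 15.5) in WT + NACET. It was at 10.6, 10.7, 8.41 and 6.80 CPM in Akita and at 10.3, 12.1, 9.76, 11.4 and 11.7 in Akita + NACET. The Akita levels lay below all WT + NACET levels, while the WT library with 8.73 CPM lay among the Akita ones. Between the genotypes under NACET (Akita + NACET vs WT + NACET) the log2 fold change was −0.46 ± 0.16 (SE, adjusted p = 0.0622 by edgeR), which DESeq2 called (adjusted p = 0.0351). It was also called by edgeR with only the groups compared (0.0478), with the replicate block (0.0356), with the covariate for reads outside exons (0.0317), and without WT replicate 3 (0.0498), WT + NACET replicate 4 (0.0461) or Akita replicate 4 (0.0426). In the other 18 of 25 alternatives it was not called. WT replicate 3 and Akita replicate 4 are not in this comparison and reach it only through the shared fit. Its values in Akita vs WT (−0.41 ± 0.20, SE, adjusted p = 0.206) and WT + NACET vs WT (0.33 ± 0.19, SE, adjusted p = 0.339) did not pass. Over the alternatives that did not leave out a single library, the value ran from −0.43 to −0.02 in Akita vs WT. In WT + NACET vs WT it ran from 0.32 to 0.62 over them. The comparisons share libraries, so these values are not independent.

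Nfkbia (chromosome 12, 56590398 to 56593634), the most abundant member, was at 38.3, 46.9 and 51.5 CPM in WT and 35.9 to 52.1 (median 41.7) in WT + NACET. The Akita libraries had 48.7, 51.7, 84.8 and 58.2 CPM, and the Akita + NACET libraries 50.9, 59.2, 61.6, 56.2 and 44.2. Akita replicate 3 was the highest, and the genotypes overlapped at the lower Akita values. The log2 fold change was 0.42 ± 0.17 (SE) in Akita vs WT (adjusted p = 0.119) and 0.33 ± 0.13 (SE) in Akita + NACET vs WT + NACET (adjusted p = 0.0935), neither of which passed. Without Akita replicate 3 the latter was called (adjusted p = 0.0419), and the log2 fold change of Akita vs WT was 0.21. Over the alternatives that did not leave out a single library, the Akita vs WT value ran from 0.16 to 0.44. With only the groups compared in the fit, Akita + NACET vs WT + NACET was also called (adjusted p = 0.0349). The other 23 of 25 alternatives left it uncalled. Akita replicate 3 is not in that comparison and reaches it only through the shared fit, and without it the log2 fold change there stayed at 0.33.

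None of the 4 subunit genes was called by edgeR or DESeq2 in any of the 6 contrasts, and 0 of them had an unadjusted p under 0.05. Rela (chromosome 19, 5637483 to 5648130), which encodes the transactivating subunit of the classical dimer, had a mean of 19.8 ± 4.30 CPM in WT (SD, n = 3) and 18.5 ± 1.82 with NACET (SD, n = 6), and of 19.3 ± 2.20 in Akita retinas without it (SD, n = 4) and 18.7 ± 2.18 with it (SD, n = 5). Over the 5 comparisons of groups its 95% intervals ran from −0.37 to 0.26 on the log2 scale, the narrowest of the members. Nfkb1 (chromosome 3, 135247619 to 135354511), which encodes the precursor of its partner, had a mean of 3.88 ± 1.15 CPM in WT (SD, n = 3), with lower means of up to 3.39 in the other groups, and intervals from −1.01 to 0.66. The products of Nfkb2 (chromosome 19, 46379227 to 46386580) and Relb (chromosome 7, 20191566 to 20214787) form the dimer of the alternative pathway. Nfkb2 had means between 1.61 and 2.41 CPM, with an interval range of −1.19 to 0.43, and Relb between 1.70 and 2.45, with −1.19 to 0.87. The intervals of all but Rela were wide. WT replicate 2 had the highest value of its group for all 4 subunits.

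**Figure D4:**
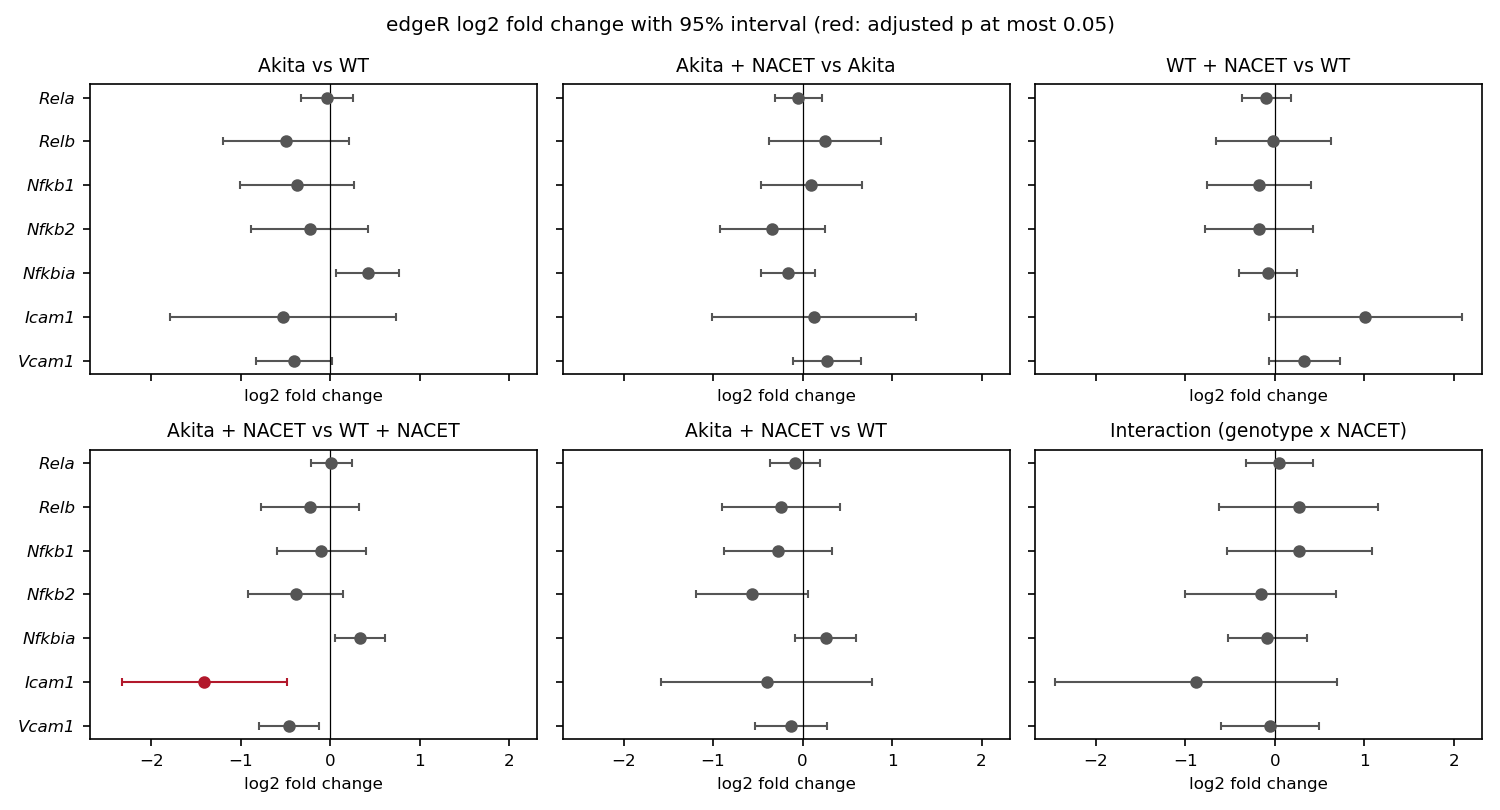
edgeR log2 fold change (x axis) with its 95% interval for the 7 tested members in the 5 comparisons of groups and the interaction; red marks an adjusted p of at most 0.05. Icam1 in Akita + NACET vs WT + NACET (−1.41) is the only red point, and the intervals of Rela are the narrowest.

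Tnf, Ccl2 and Cxcl10 were at the edge of detection. Tnf (chromosome 17, 35336326 to 35338952), a cytokine that activates NF-kB, had 9 counts in all: 1 and 4 in WT + NACET replicates 4 and 5 and 2 each in Akita + NACET replicates 4 and 5, with 0 in the 3 WT and 4 Akita libraries, which allows up to 3 counts in each. Ccl2 (chromosome 11, 81849073 to 81850955) had 0, 2 and 0 counts in WT, 1 to 14 (median 5.5) in WT + NACET, 1, 3, 1 and 2 in Akita and 0, 4, 1, 0 and 0 in Akita + NACET. Its mean was 0.382 ± 0.306 CPM in WT + NACET (SD, n = 6) and 0.0599 ± 0.102 in Akita + NACET (SD, n = 5), and 4 of the 6 WT + NACET libraries lay above all others. A two-sided exact permutation test of these groups gave p = 0.0346, adjusted p = 0.519 over the 15 tests of the 3 genes. Without the expression filter, edgeR gave −2.45 ± 0.80 (SE, adjusted p = 0.0654). Cxcl10 (chromosome 5, 92775664 to 92777915), an attractant of T cells, had 39 counts in all, at most 10 in a library, and reads in the 8.75% of its exons shared with Art3 were not assignable. For Tnf and Cxcl10 the exact permutation tests gave adjusted p-values of 0.952 or more, but with these group sizes and 15 tests such p-values could hardly have passed 0.05, so they do not show that the groups were alike.

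The members called were set beside the background of all 16183 genes tested. In Akita vs WT, edgeR called 0 of the 7 tested members, against 7.64% of all genes; 1 member, Nfkbia, had an unadjusted p under 0.05 (27% of all genes), and DESeq2 called 0 (13.6%). For Akita + NACET vs Akita it called 0 (9.65%), 0 had an unadjusted p under 0.05 (29%), and DESeq2 called 0 (15.6%). For WT + NACET vs WT the counts were 0 (1.48%), 0 (19.5%) and 0 (4.6%). For Akita + NACET vs WT + NACET edgeR called 1 of 7 (13.3%), 3 had an unadjusted p under 0.05 (31.1%) and DESeq2 called 2 (17.4%). Against untreated WT, Akita + NACET gave counts of 0 (0.00618%), 0 (4.63%) and 0 (0.058%), and for the interaction 0 (20.3%), 0 (35.6%) and 0 (22.4%). The median log2 fold change of the 7 members was −0.37 in Akita vs WT, where that of all genes was −0.01, and −0.23 in Akita + NACET vs WT + NACET. A share of 1 in 7 is near the background.

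Beyond the 10 members, 90 genes of the pathway were listed by role, and 56 of them were high enough to test. Ligands were low as a class: 1 of 9 (Il18) was tested, Il1b had at most 5 counts in a library, Il6 at most 2 and Cd40lg 0. The endothelial selectins, on which leukocytes roll, were also near 0, with at most 2 counts for Sele and 3 for Selp. Of the chemokine and chemokine receptor genes 5 of 19 were tested, of adhesion genes 12 of 19, of receptors 9 of 12, of kinases and adaptors 19 of 21, and of inhibitors 9 of 9.

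In Akita vs WT, 6 of the 56 were called (10.7%, against 7.64% of all genes), 3 higher and 3 lower. Chuk, a catalytic IkB kinase, was at 63.2 ± 2.04 CPM in WT (SD, n = 3) and fell to 35.0 ± 7.58 in Akita (SD, n = 4), a log2 fold change of −0.85 with an SE of 0.23 and an adjusted p of 0.0336. The neuronal chemokine Cx3cl1 fell from 101 ± 19.5 to 60.2 ± 13.8 CPM (−0.74 ± 0.17, SE, adjusted p = 0.0187), and Irak1, a kinase of interleukin-1 and Toll-like receptor signalling, fell by 0.67 on the log2 scale. Map3k14, the kinase that starts the alternative pathway, rose from 18.5 ± 3.26 to 28.5 ± 5.79 CPM (0.62 ± 0.15, SE, adjusted p = 0.0236). The junctional adhesion gene Jam2 and the kinase adaptor gene Tab1 rose by 0.41 and 0.36. With NACET (Akita + NACET vs Akita), 4 of these genes (7.14% of the 56, against 9.65% of all genes) were called in the opposite direction: Chuk (63.4 ± 12.3 CPM in Akita + NACET, SD, n = 5; 0.86 ± 0.21, SE, adjusted p = 0.0218) and Cx3cl1 (90.3 ± 4.67 CPM; 0.58 ± 0.15) were higher, and Jam2 (−0.45 ± 0.09) and Map3k14 (−0.54 ± 0.13) lower. Both comparisons use the same Akita libraries. In Akita + NACET vs WT, edgeR called 0 of the 56, against 0.00618% of all genes, and DESeq2 called 0, against 0.058%. There 3 of the 56 had an unadjusted p under 0.05 by edgeR, against 4.63% of all genes. With so few calls among all genes, 0 called does not show that the pathway genes were back at WT levels. The Akita vs WT count fell to 0 without WT replicate 1 or 2 and to 1 without Akita replicate 4, and the Akita + NACET vs Akita count to 0 without Akita replicate 4, and to 2 and 1 when Akita + NACET replicates 2 and 5 were dropped. With a covariate for reads outside exons both counts were 0, while most folds stayed of similar size: in Akita vs WT Irak1 was then at −0.65, Cx3cl1 at −0.65, Map3k14 at 0.57, Tab1 at 0.42 and Jam2 at 0.33 on the log2 scale, whereas Chuk was at −0.35. In Akita + NACET vs Akita, Chuk was at 0.33, Cx3cl1 at 0.50, Jam2 at −0.37 and Map3k14 at −0.49. As that share did not overlap between these groups, it and the group cannot be told apart. Cell type markers also moved between these groups. The rod markers summed to 136774 to 208663 CPM in Akita, which did not overlap WT (95549 to 130205) or Akita + NACET (87471 to 119366), and 3 of 10 were called higher in Akita vs WT and 7 of 10 lower in Akita + NACET vs Akita. The median log2 fold change of the 15 endothelial markers was −1.07 in the former, with 1 called lower, and 1.25 in the latter, with 2 called higher. The part of these markers in the pathway differences was not tested.

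In WT + NACET vs WT, 2 pathway genes were called (3.57% of the 56, against 1.48% of all genes), both higher. Bcl3, a nuclear IkB protein that binds the products of Nfkb1 and Nfkb2, was at 0.215 to 0.320 CPM in WT and at 1.19 to 4.43 in WT + NACET, a rise of 3.30 ± 0.49 on the log2 scale (SE, adjusted p = 0.000746). Tab1 was at 29.4 to 32.3 and 38.3 to 46.0 CPM (0.45 ± 0.08, SE, adjusted p = 0.00694). Neither gene's levels overlapped between the groups, and both calls held in every alternative in which the gene was tested. For Bcl3 these were 24 of 25, as a mean count of at least 50 left it untested. All 6 WT + NACET libraries lay above the filter's 0.657 CPM and no WT library did, with 3 to 4 counts each in WT. Bcl3 thus entered the tests mainly through its highest group. Its calls, in any contrast, and the count of 2 are not evidence about the pathway as a whole. In Akita, at 0.281 to 0.912 CPM, and Akita + NACET, at 0.354 to 0.784, Bcl3 overlapped, and the interaction was −3.58 ± 0.66 (SE, adjusted p = 0.00261).

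Between the genotypes under NACET, 9 of the 56 were called (16.1%, against 13.3% of all genes), 3 higher and 6 lower, with a median log2 fold change of −0.08 over the 56. Chuk (0.73 ± 0.18), the integrin gene Itga4 (0.45 ± 0.12) and the nuclear IkB gene Nfkbiz (0.43 ± 0.13) were higher. Bcl3 (−2.36 ± 0.35, SE, adjusted p = 0.000469) and Tab1 (−0.27 ± 0.07) were lower, as was Ccl12, a monocyte chemokine related to Ccl2, which ranged from 0.455 to 7.49 CPM in WT + NACET and from 0.131 to 0.766 in Akita + NACET (−2.68 ± 0.75, SE, adjusted p = 0.0282). The other lower genes are named after their values were seen. They were Tnfrsf1a, the main signalling receptor of TNF (5.75 ± 2.55 CPM in WT + NACET and 2.93 ± 0.591 in Akita + NACET, SD; −0.97 ± 0.30, SE, adjusted p = 0.0386), the hyaluronan receptor gene Cd44 (−0.86 ± 0.26, SE) and Cx3cr1, the fractalkine receptor of microglia, itself on the microglial list (−0.67 ± 0.20, SE). Calls were lost without single libraries for all but Bcl3 and Tab1. Chuk and Itga4 were lost without Akita + NACET replicate 5, Ccl12 without WT + NACET replicate 5 or Akita + NACET replicates 1, 2, 4 or 5, and Tnfrsf1a without WT + NACET replicates 1 or 5 or Akita + NACET replicates 1, 3, 4 or 5. Cx3cr1 was lost without WT + NACET replicates 3, 5 or 6 or Akita + NACET replicates 2, 4 or 5, Nfkbiz without WT + NACET replicates 3 to 6 or Akita + NACET replicates 1, 2, 4 or 5, and Cd44 without WT + NACET replicates 2, 3 or 5 or any of the 5 Akita + NACET libraries. The count of 9 fell to 4 without WT + NACET replicate 5, and to 5, 4 and 2 when Akita + NACET replicates 2, 4 and 5 were dropped in turn. With the covariate for reads outside exons it was 1, and with the replicate block 4. WT + NACET replicates 1 and 5, which were highest for Icam1, were also the highest for Tnfrsf1a and Ccl12.

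**Figure D5:**
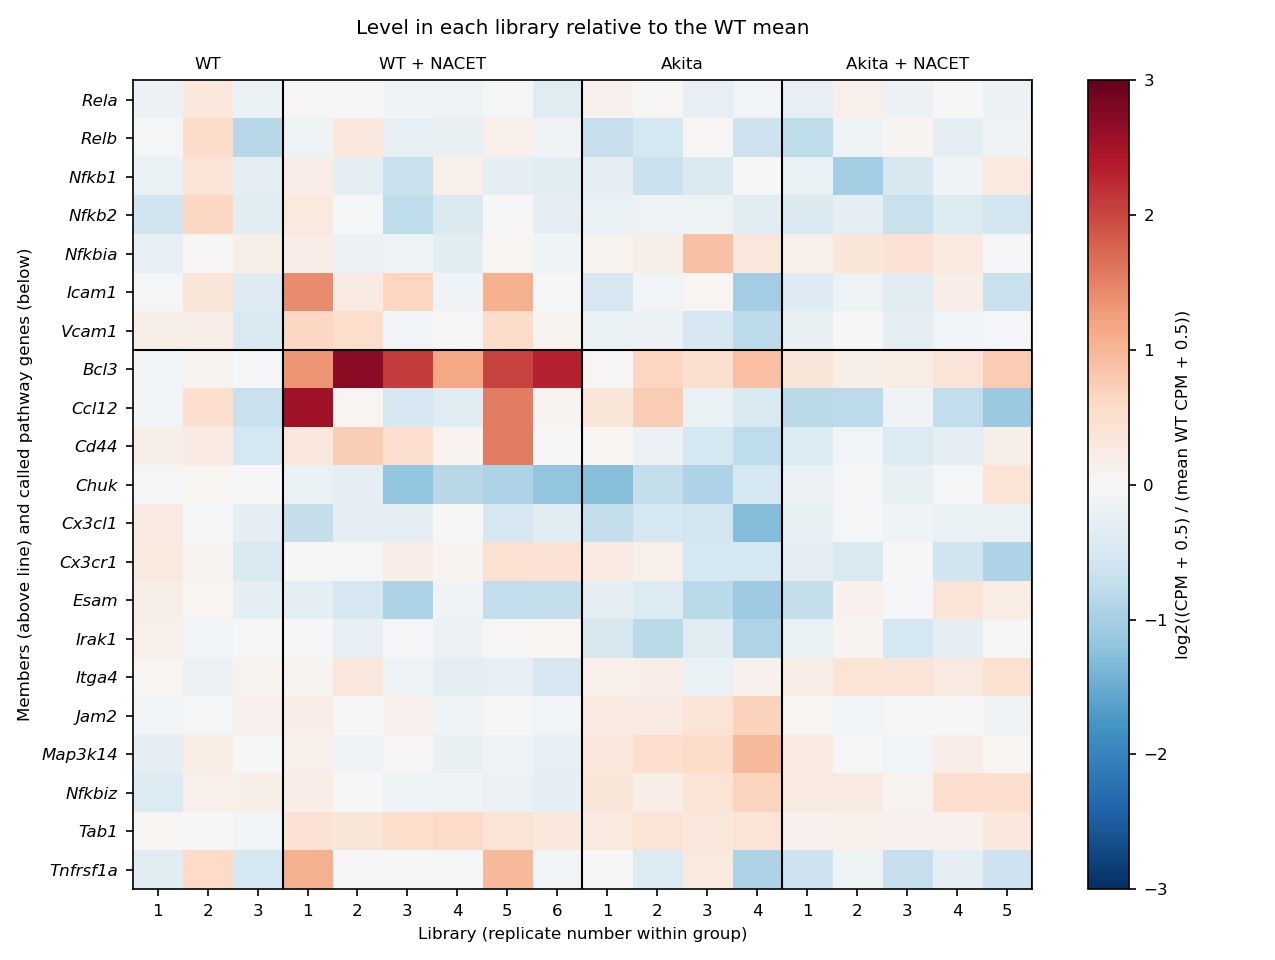
Level of the 7 tested members (above the line) and the 14 pathway genes called in any contrast (below it) in each library, as log2 of (CPM + 0.5) over (mean WT CPM + 0.5); columns are libraries by group and replicate number. Bcl3 is raised in all 6 WT + NACET libraries and Icam1 most in WT + NACET replicate 1 (1.41). Chuk is below the WT mean in all 4 Akita and all 6 WT + NACET libraries, and in Akita + NACET all but replicate 5 lie below it.

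For each tested member, the genes with the most similar pattern were found by the root mean square difference of z-scored log2 CPM over the 18 libraries, among about 14471 genes of at least 1 CPM. Icam1 was nearest to Ptpn6 (0.467) and Acss3 (0.491), against a median difference of 1.40 over all genes. Vcam1 was nearest to Gbp7 (0.508) and Irf9 (0.529), Nfkbia to Crlf3 (0.456) and Gm514 (0.524), Nfkb2 to Stard8 (0.538) and Thbs2 (0.548), and Relb to Trp53 (0.551) and Ggcx (0.590). Rela (Pafah2, 0.723; Slc30a1, 0.725) and Nfkb1 (Atl3, 0.724; Setbp1, 0.740) had less similar nearest genes. Among the members, Icam1 and Vcam1 were the closest pair (0.662), Nfkb2 and Rela the next (0.873), and Vcam1 and Nfkbia the farthest apart (1.74).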

How the data were processed

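The authors prepared poly(A) libraries, aligned single-end reads to mm9 with TopHat2 2.1.0 and counted reads per gene over exons with HTSeq 0.11.2 without strand; the deposited values are raw counts. The 5 summary entries, the nameless entry (0.00544% of counts) and 206 ribosomal RNA genes (0.977%) were left out. Groups came from the sample titles. Replicates differed by 4.82 to 55.0 chi-square per gene, so each library was counted once. Tests used edgeR 4.0.16 (quasi-likelihood, TMM, robust, filterByExpr with minimum count 10 and total 15, 4 groups in 1 fit; R 4.3.3) on 16183 genes, with Benjamini-Hochberg adjusted p of at most 0.05 as a call. The study's tool, DESeq2 (1.42.0), was an alternative. SEs follow from the F statistic. The biological coefficient of variation was 0.186. Positions are mm9. The edgeR fit was tested on simulated counts with known changes, for WT + NACET vs WT only. Named pathway genes are, per contrast, the 3 called with the smallest p in each direction. Members and lists were chosen with earlier results of these data known. Alternatives were other size factors, tools, filters, covariates, a replicate block and leaving out each library. A limit of 3 counts beside a 0 covers counting error only.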

Additional observations from a re-analysis of the deposited data

Results flagged for a closer look

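In groups of 4 to 6 libraries, 29 sets of member values were checked for a highest or lowest library far from the others, and 3 were flagged. For normally distributed values, chance meets this check in about 1 of 20 groups. Ccl2 in Akita + NACET reached 0.236 CPM in 1 library, with the next at 0.0638. Cxcl10 in WT + NACET reached 0.614 CPM, with the next at 0.205, and Tnf in WT + NACET 0.238 CPM, with the next at 0.0568. All rest on 10 counts or fewer, in groups with libraries at 0, so that rate does not apply to them.

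The difference between NACET and water libraries was not the same in WT and Akita for 6 of the 56 pathway genes tested (10.7%), by the interaction term of the edgeR fit (adjusted p of at most 0.05), and for 0 of the 7 tested members. The share over all genes was 20.3%, and 9 of 10 rod markers were called in the same test. With such a share, 0 called among 7 members does not show a lack of change. The 6 pathway genes include Bcl3, whose calls are not evidence about the pathway as a whole. The interaction rests on the WT + NACET libraries, which stood apart from all other groups in Acp1 and Wdfy1, and NACET and whatever else sets them apart cannot be told apart. On the log2 scale the interaction was −3.58 for Bcl3, −0.632 for Tab1 and −0.478 for Jam2, and 1.58 for Chuk, 1.26 for Esam and 0.925 for Cx3cl1. Esam, an adhesion gene of endothelial junctions that is also on the endothelial marker list, was at 7.46 ± 1.24 CPM in WT, 5.06 ± 1.23 in WT + NACET, 4.71 ± 1.32 in Akita and 7.73 ± 2.12 in Akita + NACET (SD). Chuk followed the same order of groups, with 63.2, 38.2, 35.0 and 63.4 CPM. With a covariate for reads outside exons 0 of the 6 were called, with values of −3.72 for Bcl3, −0.73 for Tab1, −0.34 for Jam2 and 0.77 for Cx3cl1, and smaller ones of 0.74 for Chuk and 0.40 for Esam.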

How the results depend on the processing

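Across 25 alternatives, 18 of them leaving out 1 library, none of the 35 fold changes recomputed changed direction. The folds of untested members, and member folds with an unadjusted p of 0.1 or more, were not among them. The count of called members in Akita + NACET vs WT + NACET was 1, and became 2 with DESeq2, 3 with only the groups compared, 0 with a mean count of at least 50 (Icam1 not tested) and 0 to 2 when libraries were left out. In the other 5 contrasts it was 0 throughout. The pathway count in Akita vs WT was 6, then 1 with only the groups compared, 0 with the covariate for reads outside exons, and 0 to 7 over left-out libraries. For Akita + NACET vs Akita it was 4, then 0 with the covariate and 0 to 5. In WT + NACET vs WT it was 2, then 4 with DESeq2, 1 with the mean count filter, and 2 to 3. For Akita + NACET vs WT + NACET it was 9, then 5 without a filter, 1 with the covariate, and 2 to 11. For the interaction it was 6, then 0 with the covariate, and 5 to 8. Among all genes the calls ran from 0 to 2080 in Akita vs WT (1237 as reported), 0 to 2387 in Akita + NACET vs Akita (1562), 61 to 705 in WT + NACET vs WT (240), 194 to 2751 in Akita + NACET vs WT + NACET (2148), 0 to 11 in Akita + NACET vs WT (1) and 17 to 3782 for the interaction (3289). The causes were not tested. Members passing the filter numbered 7, and 4 at a mean count of at least 50. For Icam1, with 229 counts in all, counting error at the mean count of all libraries gives a coefficient of variation of 28.0%. The pooled spread within groups was 65.6%. By group it was 44.5% in WT, 59.6% in WT + NACET, 66.0% in Akita and 44.5% in Akita + NACET. The part of depth in this spread was not tested.

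The replicate numbers did not pair the libraries: over 22 same-numbered pairs the correlation of deviations had a median of −0.0014, 4 pairs were over 0.1, and 2 of 17 libraries were closest to their own number. With the replicate block the pathway counts were 0 for Akita vs WT, 1 for Akita + NACET vs Akita and 4 for Akita + NACET vs WT + NACET, and the member count stayed at 1, with Vcam1 (adjusted p = 0.0356) called in place of Icam1 (0.0707).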
